A study of Rattus norvegicus with 29 samples.

Results

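The miR-101 family of rat plasma was taken as every counted miRNA whose name has the stem miR-101a or miR-101b, on either arm of the hairpin. It held 4 of the 754 miRNAs in the table: rno-miR-101a-3p, rno-miR-101a-5p, rno-miR-101b-3p and rno-miR-101b-5p. The family was chosen on measured values, because the difference of miR-101b-3p between TBI and sham-operated rats was not the same at the 3 study sites. Differences between TBI and sham are therefore given for the members as descriptions with their standard error (SE) and no test. Tests are kept for other comparisons of the same rats: TBI rats with against without later epilepsy, the sites, and the ratio of 1 member to another inside a library. The rats behind the choice also enter the site comparisons. Site differences in the level of miR-101b-3p and in its ratio to miR-101a-3p are therefore given as descriptions, and none is called.

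The samples were plasma of 29 adult male Sprague-Dawley rats, drawn from the tail vein 48 h after surgery, 1 library per rat. Severe traumatic brain injury (TBI) had been made by lateral fluid percussion, a pressure pulse on the exposed dura, and the sham-operated experimental controls underwent the same surgery under isoflurane without the impact. TBI rats were later sorted by long-term video-EEG into those without epilepsy (TBI−, TBIN in the labels) and with epilepsy (TBI+, TBIE in the labels). UEF gave 4 sham, 4 TBI− and 4 TBI+ rats, Monash gave 3, 3 and 2, and UCLA gave 3, 3 and 3. Total miRNA counts per rat ran from 1162307 to 5223469 with a median of 2713557. UEF sham rat 3 stood apart, with the highest total and a TMM scaling factor of 0.33 where the next lowest factor was 0.64. A factor that low raises every CPM (counts as a share of the TMM-scaled library) of that rat, so results that rest on it are also given without it or as ratios that need no scaling.

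MicroRNAs are cut from a hairpin transcript that leaves a 5p and a 3p strand, of which usually only the strand loaded into Argonaute persists. The loaded strand pairs through its seed, the bases near its 5′ end, with messenger RNAs and lowers their output. miR-101 is known for repressing Ezh2, the histone methyltransferase of Polycomb complex PRC2, and it is abundant in brain and liver, where its loss has been studied in neuronal excitability and in tumour growth. Plasma carries miRNAs released by many tissues, so a plasma level does not name the cell that released it, and fewer cells of a type and less RNA per cell cannot be told apart.

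The mature sequences show why the members fall in pairs. They are given from RefSeq (build GRCr8), 5′ to 3′, with the seed, bases 2 to 8, in capitals.
miR-101a-3p: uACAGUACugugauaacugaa
miR-101b-3p: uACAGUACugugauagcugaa
miR-101a-5p: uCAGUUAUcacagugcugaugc
miR-101b-5p: uCGGUUAUcaugguaccgaugc
The 3p strands, both 21 bases long, shared the seed and differed at 1 base, A16G, written as the base of miR-101a-3p, the position counted from 1 at the 5′ end, and the base of miR-101b-3p. A read with an error at that base could be counted under the other member, and the mismatch setting of the alignment is not given in the sources used here. The 5p strands, both 22 bases long, differed at 5 bases and had different seeds.

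The hairpins come from separate genes and are shown with the 5p and 3p strands in capitals, since the results below turn on whether strands of 1 hairpin moved together.
Mir101a: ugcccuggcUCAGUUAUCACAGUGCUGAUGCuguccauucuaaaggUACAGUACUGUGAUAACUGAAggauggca
Mir101-2: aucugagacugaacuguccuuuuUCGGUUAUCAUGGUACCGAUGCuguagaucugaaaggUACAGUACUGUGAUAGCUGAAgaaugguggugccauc
In GRCr8 Mir101a is at chr5:121081683-121081757 on the minus strand, inside the long non-coding RNA gene LOC120102934 of the same strand. Mir101-2, the source of both miR-101b strands, is at chr1:236273922-236274018 on the plus strand, inside the protein-coding gene Rcl1 of the same strand. Counts were made on the earlier build Rnor_6.0, and names, not coordinates, join the counts to these sequences.

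In every rat both 3p strands were far above both 5p strands. miR-101b-3p had 378 to 13229 counts per rat and ranked 77 of 754 by mean share of a library. miR-101a-3p had 359 to 2694 counts and ranked 96. The 5p strands were in the lower part of the order: miR-101b-5p had 15 to 116 counts and ranked 503, and miR-101a-5p had 10 to 208 and ranked 547. Within a library miR-101b-3p exceeded miR-101a-3p in 27 of 29 rats, and miR-101b-5p exceeded miR-101a-5p in 22 of 29. The order of the hairpin strands was thus fixed, 3p over 5p in 29 of 29 rats for either gene, while the order of the 2 genes was not. The family as a whole made up 0.0503% to 0.295% of the miRNA counts of a rat.

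**Figure D1:**
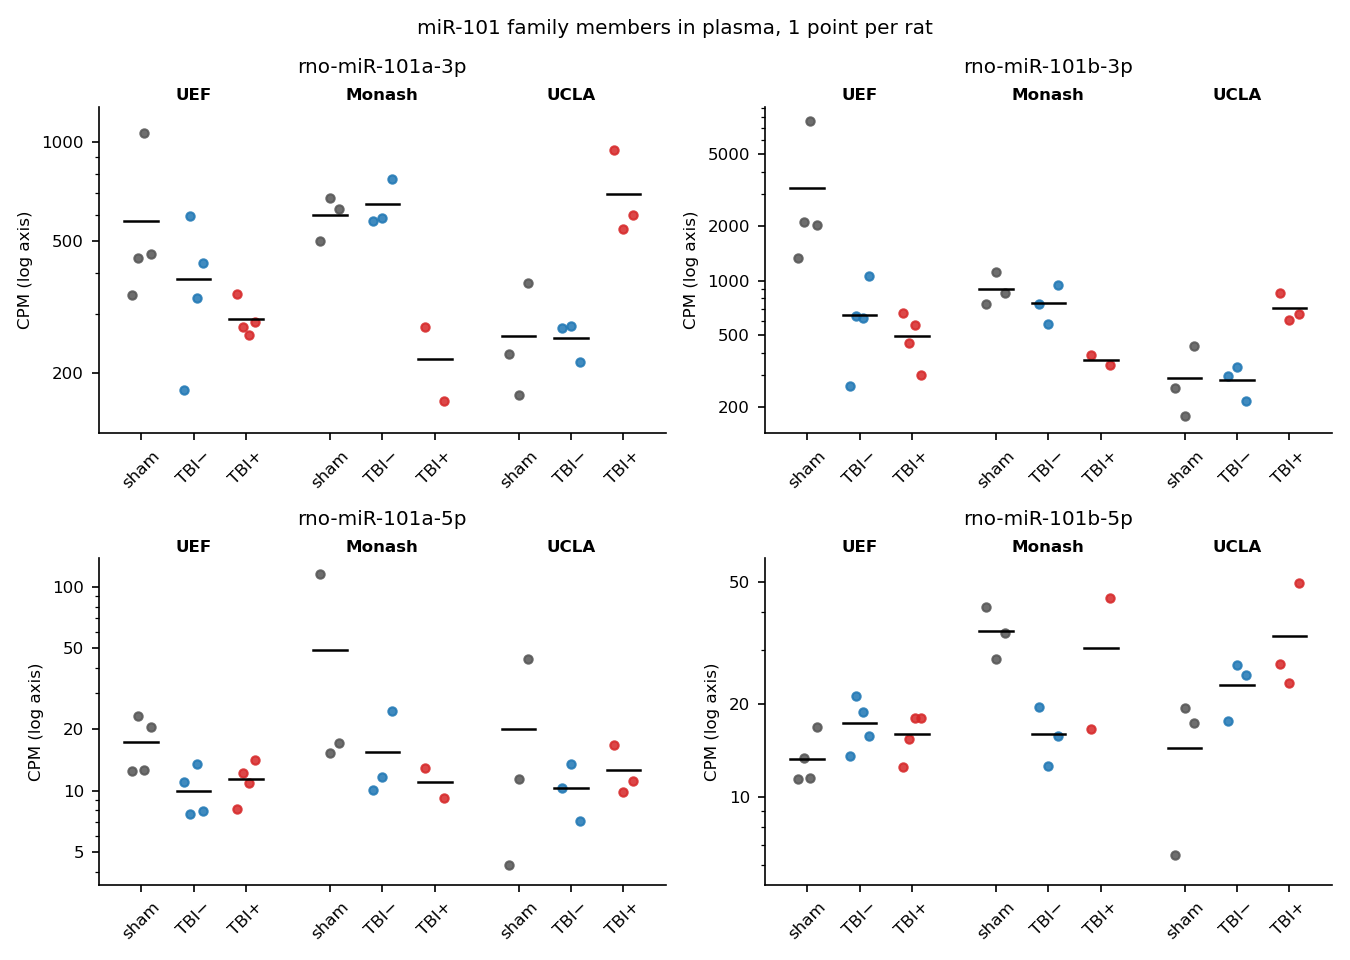
Level of each member in CPM (log axis), 1 point per rat, by study site and outcome, with a line at the arithmetic mean of each group. miR-101b-3p is highest in the 4 UEF sham rats, from 1327 to 7598 CPM, while miR-101b-5p of the same rats lies between 11.4 and 16.8 CPM.

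miR-101b-3p was lower in TBI than in sham rats at UEF, with no overlap, and the groups overlapped at Monash and UCLA. At UEF the 4 sham rats had 1327, 2106, 7598 and 2018 CPM. The 8 TBI rats there had a lowest value of 260, a median of 593 and a highest value of 1062 CPM. The highest TBI rat of UEF thus lay below the lowest sham rat. At Monash the 3 sham rats had 746, 1115 and 850 CPM and the 5 TBI rats 741, 573, 944, 388 and 343 CPM. At UCLA the 3 sham rats had 255, 180 and 435 CPM, and the 6 TBI rats had a lowest value of 217, a median of 470 and a highest value of 852 CPM. The sham rats of the 3 sites were themselves apart: those of UEF were above those of Monash, and those of Monash were above those of UCLA. The share of all miRNAs that lay apart in this way was not counted. Rat vendor and food differed between the 3 sites, and UCLA used another analgesic, so these cannot be told apart from site.

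As log2 fold changes from edgeR, TBI less sham, miR-101b-3p stood at −2.52 (SE 0.41) at UEF, −0.60 (SE 0.51) at Monash and 0.77 (SE 0.51) at UCLA. The UEF value is a level 5.72-fold lower after TBI. Of 754 miRNAs, 6 had a lower value than miR-101b-3p at UEF, and the median of all miRNAs was 0.01. Non-overlap of TBI and sham at UEF was met by 3.05% of all miRNAs and by 1 of the 4 members, which is the member that led to the choice. Without UEF sham rat 3 the UEF difference was −1.64. With library totals in place of TMM it was −1.76 while the median of all miRNAs moved to 0.43, so that miR-101b-3p lay 2.19 below that median (−2.19) in place of −2.52. Over all sites the difference was −1.18 (SE 0.38), and without the UEF rats it was 0.04. Leaving out 1 rat at a time, the difference over all sites ran from −1.38 to −0.67.

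miR-101a-3p, which carries the same seed, did not separate the groups at any site. At UEF the 4 sham rats had 343, 446, 1065 and 458 CPM, and the 8 TBI rats had a lowest value of 177, a median of 311 and a highest value of 597 CPM. The highest of those sham values came from UEF sham rat 3. At Monash the 3 sham rats had 501, 674 and 624 CPM and the 5 TBI rats 578, 587, 775, 275 and 164 CPM. At UCLA the 3 sham rats had 228, 171 and 374 CPM and the 6 TBI rats had a lowest value of 215, a median of 411 and a highest value of 944 CPM. TBI less sham was −0.77 (SE 0.40) at UEF, −0.33 (SE 0.48) at Monash and 0.88 (SE 0.49) at UCLA on the log2 scale. Without UEF sham rat 3 the UEF value was −0.27, and with library totals it was −0.19. At UEF the SE was close to that of miR-101b-3p and the difference smaller.

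The 5p strands gave a different account. miR-101b-5p, cut from the same hairpin as miR-101b-3p, had 11.4, 13.4, 11.5 and 16.8 CPM in the 4 UEF sham rats and 12.5 to 21.3 CPM in the 8 UEF TBI rats. It was thus not high where its partner was high. TBI less sham was 0.33 (SE 0.32) at UEF, −0.66 (SE 0.36) at Monash and 0.96 (SE 0.37) at UCLA. Across the 29 rats the Spearman correlation of log2 CPM between miR-101b-3p and miR-101b-5p was −0.10, as a description over rats that share site and outcome groups, and it was 0.07 in the 8 UEF TBI rats and 0.31 in the 17 Monash and UCLA rats. The 3p strands of the 2 genes, in contrast, had a Spearman correlation of 0.78 in all 29 rats, 0.83 in the 8 UEF TBI rats and 0.91 in the 17 Monash and UCLA rats. The 2 strands of Mir101a had 0.41, −0.57 and 0.57 in the same sets. miR-101b-5p had only 15 to 116 counts per rat, and the part of low counts in its correlations was not tested.

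miR-101a-5p was lower after TBI at each site in the fit, but 1 sham rat decided the size at 2 of them. TBI less sham was −0.69 (SE 0.46) at UEF, −1.84 (SE 0.53) at Monash and −0.82 (SE 0.52) at UCLA. Monash sham rat 1 had 208 counts (115 CPM) against 15.2 and 17.1 CPM in the other sham rats there, and UCLA sham rat 3 had 137 counts (44.2 CPM) against 4.32 and 11.4 CPM. Without the first, the Monash difference was −0.23, and without the second, the UCLA difference was 0.55. miR-101a-3p, the other strand of that hairpin, stood at 501 CPM in the first rat, the lowest of the Monash sham rats, and at 374 CPM in the second, the highest of those at UCLA. No member had TBI and sham apart at Monash or UCLA, where 1.99% and 5.97% of all miRNAs did.

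**Figure D2:**
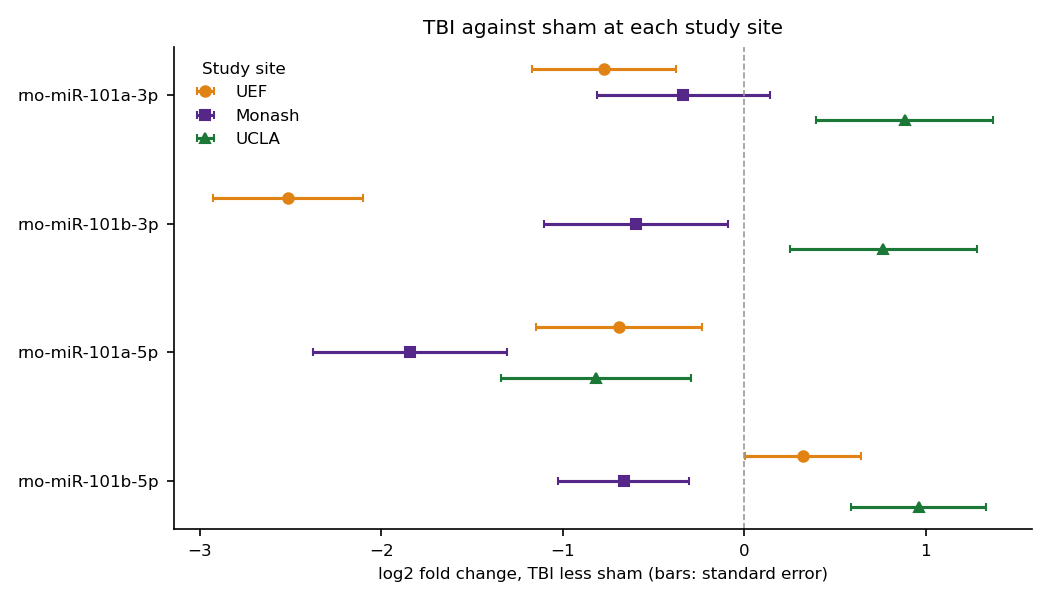
Log2 fold change of each member, TBI less sham, at each study site (points), with the standard error of the edgeR fit (bars). miR-101b-3p runs from −2.52 at UEF to 0.77 at UCLA, and miR-101b-5p from −0.66 at Monash to 0.96 at UCLA.

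The ratio of miR-101b-3p to miR-101a-3p inside a library does not depend on scaling, and it set the UEF sham rats apart more cleanly than either level. The log2 ratio, with 1 count added to each, was 1.95, 2.24, 2.83 and 2.14 in the 4 UEF sham rats. In the 8 UEF TBI rats its lowest value was 0.08, its median 0.79 and its highest value 1.30. In the 4 sham rats of UEF miR-101b-3p thus had at least 3.87 counts for each count of miR-101a-3p, and in the 8 TBI rats there at most 2.47. At Monash the ratio was 0.57, 0.73 and 0.44 in the sham rats and −0.04 to 1.06 in the 5 TBI rats. At UCLA the 2 strands were close to equal in every rat, from −0.15 to 0.27 over all 9. By injury state the mean log2 ratio was 2.29 ± 0.38 (SD, n = 4) in sham and 0.71 ± 0.45 (n = 8) in TBI rats of UEF, 0.58 ± 0.14 (n = 3) and 0.43 ± 0.40 (n = 5) at Monash, and 0.15 ± 0.07 (n = 3) and 0.09 ± 0.14 (n = 6) at UCLA.

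**Figure D3:**
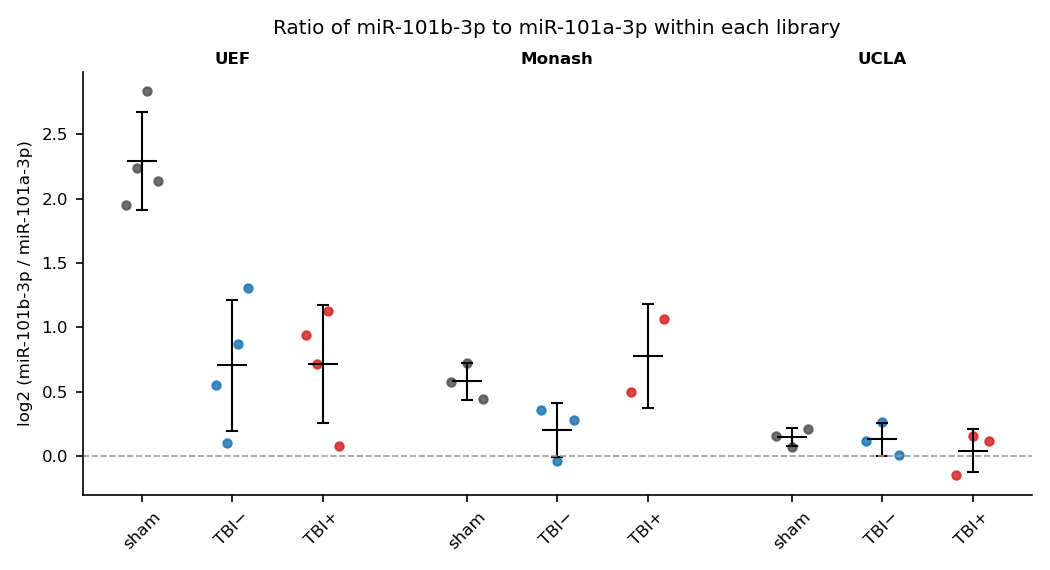
Log2 ratio of miR-101b-3p to miR-101a-3p counts, 1 point per rat, by study site and outcome; lines and bars are the group mean and SD, and the dashed line marks equal counts. The 4 UEF sham rats lie between 1.95 and 2.83, above every other rat, and the 9 UCLA rats lie between −0.15 and 0.27.

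Over all rats of a site, the mean log2 ratio of UEF was 1.24, that of Monash 0.49 and that of UCLA 0.11. The UEF mean was thus 1.13 above that of UCLA and 0.75 above that of Monash, which are descriptions, since the UEF sham rats that carry them also led to the choice of the family. Monash and UCLA differed by 0.38 (n = 8 and 9), also a description, since the UCLA rats entered the choice of the family as well. In TBI rats alone the difference between UEF and UCLA was 0.62. That between Monash and UCLA was 0.35 in TBI rats alone (n = 5 and 6). Both are descriptions, since the TBI rats entered the choice of the family too. In sham rats alone UEF lay 2.14 above UCLA. Monash lay 0.43 above UCLA there, where 3 rats against 3 allow no two-sided exact p below 0.1. The ratio of miR-101a-3p to its own 5p strand had means of 4.91, 4.68 and 4.84 at UEF, Monash and UCLA, and no site pair passed the threshold (exact permutation, adjusted over 8 ratio tests p = 0.850 for each).

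The share of liver miRNAs was highest in the rats with the highest ratio. The list of liver miRNAs held miR-122-5p, the most abundant miRNA of hepatocytes, miR-192-5p, miR-194-5p and miR-802-5p, and all 4 were counted in every rat. Together they made up 30.8% to 57.9% of the miRNA counts of the 4 UEF sham rats, 1.98% to 24.4% in the 8 UEF TBI rats, 10.2% to 13.6% and 2.70% to 10.2% in sham and TBI rats of Monash, and 2.17% to 3.49% and 1.06% to 2.71% in those of UCLA. The order of these shares over the sites was that of miR-101b-3p in the sham rats. At UEF 3 of the 4 liver miRNAs had every TBI rat below every sham rat, where the groups were apart in either direction for 3.05% of all miRNAs, and the list's median log2 difference was −2.42, against 0.01 over all miRNAs. In the 8 UEF TBI rats the Spearman correlation of the log2 ratio with the log2 share of the liver list was 0.55, and in the 17 Monash and UCLA rats it was 0.69. Both quantities come from the same libraries, the second set pools 2 sites, and the part of liver RNA in the result was not tested.

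**Figure D4:**
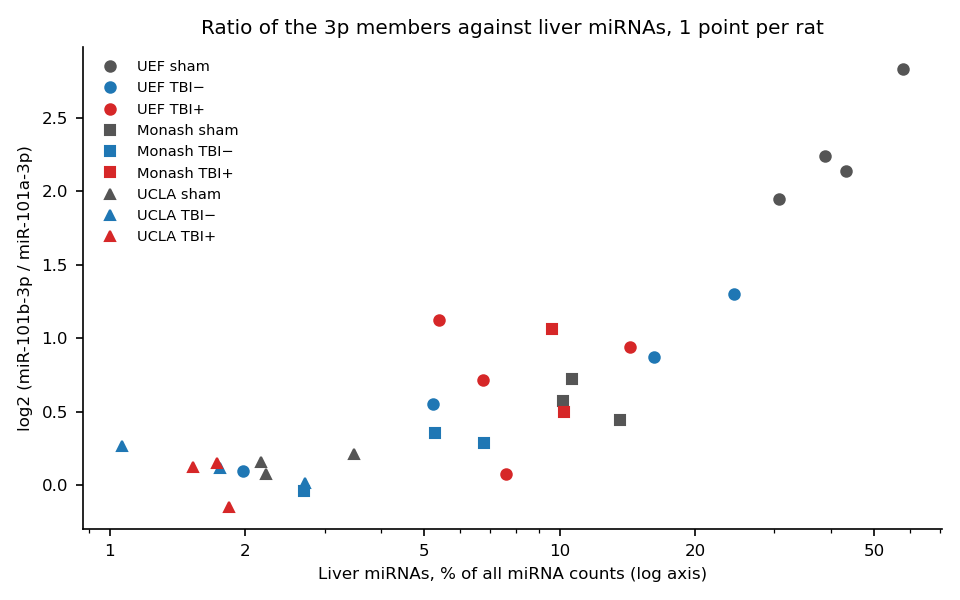
Log2 ratio of miR-101b-3p to miR-101a-3p against the share of miRNA counts held by 4 liver miRNAs (log axis), 1 point per rat. The 4 UEF sham rats are at the upper right, at 30.8% to 57.9%, and the 9 UCLA rats at the lower left, at 1.06% to 3.49%.

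The other cell type lists had medians above 0 at UEF. The red cell list (miR-451-5p, miR-144-3p, miR-144-5p, miR-486 and miR-16-5p) held 6.82% to 19.9% of counts in UEF sham and 22.0% to 40.7% in UEF TBI rats, the opposite direction to miR-101b-3p. Such shares depend on the liver list, which held 30.8% to 57.9% of counts in UEF sham rats. By CPM 0 of the 5 red cell members had TBI and sham apart at UEF, beside 3.05% of all miRNAs. The median log2 difference of the red cell list was 0.96 at UEF and 1.15 at UCLA, against −0.37 at Monash. The neuron and brain list of 7 miRNAs held 0.120% to 0.385% in UEF sham and 0.585% to 1.25% in UEF TBI rats, with a median of 0.88, and 3 of its 7 members had every TBI rat of UEF above every sham rat, beside the same 3.05% of all miRNAs. The white cell and platelet list of 5 had a median of 0.11 at UEF, −0.13 at Monash and 0.85 at UCLA. The muscle list, 4 rows of the table, had 1.01, 0.06 and 0.19, and its share varied within groups, from 0.0315% to 1.62% in UEF sham rats alone. No marker of these lists was at 0 counts in any rat. The part of these cells in the members' levels was not tested.

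Epilepsy after TBI was compared within the injured rats, which did not enter the choice of the family through this contrast. Over all sites no member passed the threshold between TBI+ and TBI− rats. The log2 differences, TBI+ less TBI−, were 0.07 (SE 0.36) for miR-101a-3p, 0.14 (SE 0.46) for miR-101b-3p, 0.12 (SE 0.37) for miR-101a-5p and 0.37 (SE 0.26) for miR-101b-5p (edgeR quasi-likelihood test, adjusted p = 0.998 for each). Of all 754 miRNAs 0% passed the threshold in edgeR, with 17 at an unadjusted p under 0.05.

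Inside a site miR-101a-3p passed the threshold at Monash and at UCLA, in opposite directions. At Monash the 2 TBI+ rats had 275 and 164 CPM of miR-101a-3p and the 3 TBI− rats 578, 587 and 775. At UCLA the 3 TBI+ rats had 944, 544 and 601 CPM and the 3 TBI− rats 273, 277 and 215. Neither pair of groups overlapped, with TBI+ below TBI− at Monash and above it at UCLA. Groups of 2 and 3 rats often lie apart, and the share of all miRNAs that did so here was not counted. miR-101a-3p fell by 1.56 on the log2 scale at Monash (SE 0.50, edgeR adjusted p = 0.0491), a level 2.95-fold lower in TBI+ rats, and rose by 1.45 at UCLA (SE 0.43, edgeR adjusted p = 0.0371), 2.73-fold. At UEF its difference was −0.40 (SE 0.36, adjusted p = 0.999). Of all miRNAs 8.22% passed the threshold at Monash, 6.63% at UCLA and 0% at UEF (with 17 there at an unadjusted p under 0.05).

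miR-101b-3p had the same directions as miR-101a-3p, without passing the threshold at any site. At Monash the TBI+ rats had 388 and 343 CPM and the TBI− rats 741, 573 and 944, and at UCLA the TBI+ rats had 852, 606 and 654 CPM and the TBI− rats 297, 333 and 217. TBI+ less TBI− was −1.04 (SE 0.59, edgeR adjusted p = 0.327) at Monash, 1.32 (SE 0.52, adjusted p = 0.138) at UCLA and −0.38 (SE 0.44, adjusted p = 0.999) at UEF. The log2 ratio between the 3p strands differed by 0.12, TBI+ less TBI− over all sites, which did not pass the threshold (exact permutation within sites, n = 9 and 10, adjusted p = 0.850). The 5p strands did not pass the threshold at any site (edgeR adjusted p from 0.186 to 0.999).

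Since the directions at Monash and UCLA were opposite, the difference between them was tested in the same fit, a comparison added after the values had been seen. miR-101a-3p differed between the sites by 3.01 on the log2 scale (UCLA less Monash, SE 0.66, edgeR adjusted p = 0.00151) and miR-101b-3p by 2.36 (SE 0.79, adjusted p = 0.0408), while 15.5% of all miRNAs passed in that comparison. miR-101a-3p kept a value past the threshold under all 9 other settings of the analysis and in each of the 29 fits that left out 1 rat. miR-101b-3p did so under 8 of the 9 settings, losing the call with replicate numbers as a block (2.15, adjusted p = 0.0680), and in 20 of the 29 fits. The calls inside 1 site were less firm, and miR-101a-3p passed under 5 of the 9 settings at Monash and 7 of the 9 at UCLA. That of miR-101a-3p at Monash was lost without any 1 of 18 rats: without TBI− rats 1, 2 and 3 of Monash the adjusted p was 0.0645, 0.0833 and 0.0936, without TBI+ rats 1 and 2 it was 0.0881 and 0.476, and without the other 13 it was 0.0515 to 0.0588 with the difference still −1.56. That at UCLA was lost without TBI− rats 1, 2 and 3 (0.0714, 0.0918 and 0.173) and TBI+ rats 1 and 2 (0.148 and 0.0522). With library totals in place of TMM the differences were −1.13 and 1.07 (adjusted p = 0.0754 and 0.0651), and the medians of all miRNAs moved to 0.38 and −0.31, so that miR-101a-3p lay at −1.52 and 1.38 relative to them. Scaling to miR-28-3p, the reference miRNA of the study, also ended both calls, with differences of −1.19 and 1.14 (adjusted p = 0.0957 and 0.0926). At Monash the call was lost as well with DESeq2 size factors (adjusted p = 0.0506) and with the replicate block (0.0899).

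Each cell type list had 0 or 1 member past the threshold at Monash and at UCLA, beside 8.22% of all miRNAs at Monash and 6.63% at UCLA. The white cell and platelet list had a median TBI+ less TBI− of −1.004 at Monash and 0.92 at UCLA, and 1 of its 5 members, miR-142-5p, was called lower at Monash and higher at UCLA. The red cell list had −0.67 and 0.38, with 0 of 5 called at Monash and 1 of 5, miR-144-5p, called higher at UCLA. The neuron and brain list had the opposite signs, 0.28 and −0.16, and 1 of its 7 members, miR-137-3p, was called higher at Monash and lower at UCLA. The muscle list had −1.62 and 1.31, with 0 of 4 called at either site. These single members are named after their values were seen. The liver list had −0.24 and 0.24 with 0 of 4 called at either site, and its share of counts was 9.61% to 10.2% in TBI+ and 2.70% to 6.79% in TBI− rats of Monash. Totals differed too: the 2 TBI+ libraries of Monash had 1320300 and 1722453 counts and the 3 TBI− libraries 2343627 to 3395469. The part of these lists and of depth in the result was not tested.

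**Figure D5:**
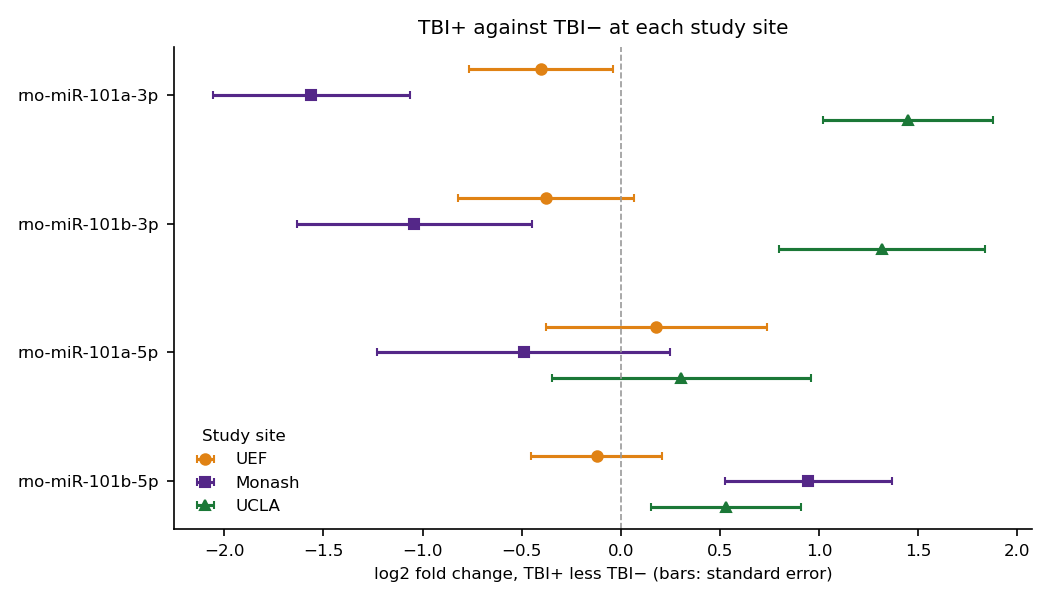
Log2 fold change of each member, TBI+ less TBI−, at each study site (points), with the standard error of the edgeR fit (bars). Both 3p strands lie left of 0 at Monash (−1.56 and −1.04) and right of 0 at UCLA (1.45 and 1.32).

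Between sites, with outcome in the model, 1 member passed the threshold for 1 pair. miR-101b-5p was lower at UEF than at Monash by 0.78 on the log2 scale (−0.78, SE 0.26, edgeR adjusted p = 0.0474), against a background of 9.68% of miRNAs called, and the call was lost without any 1 of 21 of the 29 rats (adjusted p up to 0.118, without Monash sham rat 1). Mean CPM of this strand was 15.6 ± 3.15 (SD, n = 12) at UEF, 26.6 ± 12.3 (n = 8) at Monash and 23.7 ± 11.7 (n = 9) at UCLA. miR-101b-3p stood 1.25 (SE 0.47) higher at UEF than at UCLA, as a description. That difference was 3.45 when only sham rats were fitted and 0.25 when only TBI rats were. Both values are descriptions too, since sham and TBI rats alike entered the choice of the family. miR-101a-3p differed by −0.34 between UEF and Monash, 0.02 between UEF and UCLA and 0.36 between Monash and UCLA (SE 0.33 to 0.38, adjusted p = 0.573, 0.977 and 0.646). Between UEF and UCLA 9.42% of miRNAs were called and between Monash and UCLA 5.44%. For the 3 sites together 14.7% were called, neither miR-101a-3p nor a 5p strand among them (edgeR adjusted p from 0.0657 to 0.719). miR-101b-3p was not among them either, which is not read as a test, since the same rats led to the choice.

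The nearest relative by seed was miR-144-3p, a red cell miRNA that shares bases 2 to 7 and differs at base 8.
miR-144-3p: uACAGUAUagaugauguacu
Of the 674 miRNAs of the table with a RefSeq sequence under the same name, 89.4% of its rows, no other than the 2 members and miR-144-3p carried those bases. miR-144-3p was counted at 48 to 282 per rat, at 22.0 to 128 CPM, below both 3p members in every rat. TBI less sham was 0.46 (SE 0.34) at UEF, −0.37 (SE 0.39) at Monash and 1.15 (SE 0.40) at UCLA, so at UEF it went the other way from miR-101b-3p. TBI+ less TBI− was −0.43 (SE 0.32), −0.81 (SE 0.42) and 1.09 (SE 0.37), none past the threshold (edgeR adjusted p = 0.999, 0.272 and 0.0758).

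The 5 miRNAs whose log2 CPM ran most like that of each 3p member over the 29 rats were not the same for the 2. For miR-101b-3p they were miR-22-3p, miR-192-5p, miR-30a-5p, miR-378a-3p and miR-34a-5p, with Spearman correlations of 0.88, 0.86, 0.86, 0.84 and 0.84. For miR-101a-3p they were miR-195-5p, miR-26b-5p, miR-21-5p, miR-30e-5p and let-7g-5p, with 0.89, 0.86, 0.86, 0.86 and 0.84. The rats share sites, outcomes and scaling factors, so these are descriptions without a p. All 10 were picked by likeness over these rats, the UEF sham rats included, so a shared direction at UEF is partly built in. TBI less sham at UEF was below 0 for all 10, where the median of all miRNAs was 0.01. It was −2.05 (SE 0.40) for miR-192-5p, a miRNA of liver and gut, −1.29 (SE 0.31) for miR-22-3p, and −1.28 (SE 0.40) for miR-195-5p, while let-7g-5p had −0.43 (SE 0.34). None of the 10 reached the −2.52 of miR-101b-3p.

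The 3p members had a low share of G and C, 33.3% in miR-101a-3p and 38.1% in miR-101b-3p. The 138 miRNAs of at most 40% GC had a median TBI less sham of 0.02 at UEF, 0.07 at Monash and 0.13 at UCLA, against 0.01, 0.05 and 0.02 over all miRNAs. Their median TBI+ less TBI− was −0.22, −0.09 and 0.08, against −0.06, −0.05 and 0.03. At Monash 10.1% and at UCLA 8.70% of them were called, against 8.22% and 6.63% of all miRNAs. The direction of miR-101a-3p was that of 4 of their 14 calls at Monash (lower in TBI+) and 5 of their 12 at UCLA (higher). Over all miRNAs it was that of 12 of 62 calls at Monash and 7 of 50 at UCLA, the less frequent direction at both sites.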

How the data were processed

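Small RNA libraries of 29 rat plasma samples carried unique molecular identifiers. Per the study's methods and the processing notes, the authors trimmed reads with cutadapt, discarded short inserts and identifiers, aligned with bowtie to the rat genome Rnor_6.0 and annotated with miRBase. The deposited table holds raw counts per miRNA and rat, without normalization. Whether reads of 1 molecule were merged is not given in the sources used here.

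Counts of all 754 miRNAs, which all passed filterByExpr with a minimum count of 10, were fitted with edgeR 4.0.16 (limma 3.58.1, R 4.3.3): TMM scaling, quasi-likelihood F tests and Benjamini-Hochberg adjustment over all miRNAs, with a threshold of 0.05. Injury within sites used 6 means, epilepsy within sites used 9, and pooled and site comparisons used site and outcome. CPM are TMM-scaled, and log2 CPM used a prior count of 2. Log2 ratios, with 1 count added, were compared by two-sided exact permutation tests (8 tests adjusted together, 6 where sham or TBI rats stood alone) with scipy 1.17.1 under Python 3.11.15. Site differences in the ratio of miR-101b-3p to miR-101a-3p are given without their p. Tables were handled with pandas 2.3.3 and numpy 2.4.6, and plots drawn with matplotlib 3.10.9. The scripts were tested on simulated data. Each rat was 1 replicate, and no 2 libraries of a group were identical.

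The members and all lists were chosen with earlier results of these data known. Named miRNAs are the members, the miRNAs sharing bases 2 to 7 with miR-101a-3p, the 5 nearest by Spearman correlation to each 3p member, and 5 cell type lists. miR-101b-5p met the naming rule of the family beside the 3 members listed at the outset and is treated alike. Sequences came from RefSeq, build GRCr8, by name, and all 4 members matched. Alternatives were DESeq2 1.42.0 and its size factors, library totals, scaling to miR-28-3p, totals without the 3 largest miRNAs, no count filter, a filter of 10 counts in every rat, replicate numbers as a block, the red cell ratio as a covariate, single sites or injury states, and each rat left out. The test of UCLA less Monash for epilepsy, and the ratios in sham or TBI rats alone, were added after the data were seen.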

Additional observations from a re-analysis of the deposited data

Results flagged for a closer look

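Within groups of 4 to 10 rats, 1 rat lay far from the others (Dixon's gap) in 8 of the 49 combinations of a measure and a group that were examined, where chance gives about 1 in 20, and the groups overlap. UEF sham rat 3 had 7598 CPM of miR-101b-3p, where the next of the UEF sham rats, and of all sham rats, had 2106, and 1065 CPM of miR-101a-3p, where the next had 458. These values carry its low TMM factor of 0.33. With library totals it had 2533 CPM of miR-101b-3p and 355 of miR-101a-3p, where UEF sham rat 4 had 2368 and 537. Monash sham rat 1 had 115 CPM of miR-101a-5p, where the next sham rat had 44.2. Monash TBI− rat 3 had 24.5 CPM of miR-101a-5p, where the next TBI rat of Monash had 12.9 and the next TBI− rat of any site 13.4. For miR-101b-5p, Monash TBI+ rat 2 had 44.4 CPM, where the next TBI rat of Monash had 19.6, and UCLA TBI+ rat 3 had 49.7, where the next TBI rat of UCLA had 27.0.

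The difference between TBI+ and TBI− rats was not the same at UCLA and Monash, by 3.01 for miR-101a-3p and 2.36 for miR-101b-3p on the log2 scale (edgeR adjusted p = 0.00151 and 0.0408), a comparison made after the values were seen. The difference of miR-101b-3p between TBI and sham was lower at UEF than at UCLA by 3.28 (−3.28). That is the difference on which the family was chosen, and it was not tested here.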

How the results depend on the processing

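Of the values under alternatives other than leaving out 1 rat, 527 counted as the same and 24 values or counts moved. Another 15 changed sign, 5 passed the threshold newly and 15 no longer passed it. Tested differences counted as the same if direction and side of the threshold held, and counts of miRNAs if within 1.5-fold. Untested differences between TBI and sham did so if they shifted by less than the SD within groups, even where their sign changed. Low counts limit the 5p strands, with as few as 10 per rat, and Monash has only 2 TBI+ rats. Where a setting changed a result the cause was not tested, apart from fewer rats being in a fit. Log2 differences are given unless counts of miRNAs past the threshold are named. No change of direction or call came from dropping the count filter or from totals without the 3 largest miRNAs.

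With library totals, TBI less sham was −0.19 for miR-101a-3p and −1.76 for miR-101b-3p at UEF, and 0.28 for miR-101a-3p and 0.38 for miR-101b-5p at UCLA. UEF less Monash was −0.88 for miR-101b-5p (33 miRNAs called, 73 with TMM), and UEF less UCLA was −0.028 for miR-101a-3p and 1.13 for miR-101b-3p. TBI+ less TBI− was 0.12 for miR-101b-5p at UEF, −1.13 for miR-101a-3p at Monash (25 called, 62 with TMM), and 1.07 for miR-101a-3p and −0.071 for miR-101a-5p at UCLA (17 called, 50 with TMM). UCLA less Monash was −0.066 for miR-101a-5p. With scaling to miR-28-3p the same order of comparisons gave −0.23 and −1.80 for the 3p strands at UEF after TBI, −0.71 for miR-101b-5p between UEF and Monash (18 called), 0.010 for miR-101a-5p and 1.16 for miR-101b-3p between UEF and UCLA, 0.23 for miR-101b-5p at UEF in TBI+ rats, −1.19 for miR-101a-3p at Monash (adjusted p = 0.0957, 11 called) and 1.14 at UCLA (0.0926, 14 called).

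With DESeq2 size factors UEF less UCLA was −0.0091 for miR-101a-3p, and TBI+ less TBI− of miR-101a-3p at Monash was −1.59 (adjusted p = 0.0506). DESeq2 gave −0.0091 and 1.23 for miR-101a-3p and miR-101b-3p between UEF and UCLA and called 110 miRNAs between UEF and Monash. With at least 10 counts in every rat, miR-101b-3p was 1.29 between UEF and UCLA. With the red cell ratio as a covariate, miR-101a-5p was −0.053 in TBI+ less TBI− rats of UEF.

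Replicate numbers did not pair the rats: same-numbered rats had correlations of their deviations from −0.417 to 0.395, with a median of −0.006. With a replicate block miR-101b-5p was −0.87 between UEF and Monash, where 31 miRNAs were called, 46 were called between UEF and UCLA, miR-101a-3p was −1.46 in TBI+ rats of Monash (adjusted p = 0.0899) and miR-101b-3p was 2.15 for UCLA less Monash (adjusted p = 0.0680). The block changed no other call of a member.

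In sham rats alone 35 miRNAs were called between UEF and Monash, 36 between UEF and UCLA, 21 between Monash and UCLA and 66 for the 3 sites together (111 in all rats), and miR-101b-3p was 3.45 between UEF and UCLA. In TBI rats alone the counts were 0, 40, 22 and 40. There miR-101b-3p was −0.064 and miR-101b-5p −0.40 between UEF and Monash, miR-101a-3p −0.48 between UEF and UCLA, and miR-101a-3p −0.015 and miR-101b-5p −0.28 between Monash and UCLA. The ratio of the 3p strands between UEF and UCLA and between Monash and UCLA was 2.14 and 0.43 in sham and 0.62 and 0.35 in TBI rats alone. Without the UEF rats TBI less sham of miR-101b-3p was 0.039 over all sites. Without the UCLA rats TBI+ less TBI− was −0.78 for miR-101a-3p and −0.69 for miR-101b-3p.

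Leaving out 1 rat at a time gave these ranges. TBI less sham ran from −2.34 to −0.23 (Monash) and −1.29 to 0.55 (UCLA) for miR-101a-5p, and from −0.87 to −0.27 for miR-101a-3p and −2.70 to −1.64 for miR-101b-3p (UEF). TBI+ less TBI− ran from −1.98 to −1.23 for miR-101a-3p and −0.74 to 0.072 for miR-101a-5p at Monash (17 to 75 called), from 1.12 to 1.60, −0.0069 to 0.55 and 1.12 to 1.45 for miR-101a-3p, miR-101a-5p and miR-101b-3p at UCLA (23 to 67 called), and from −0.14 to 0.26 and −0.041 to 0.29 for miR-101a-3p and miR-101b-3p over all sites. miR-101b-3p at UCLA passed the threshold without UEF sham rat 3 (1.27, adjusted p = 0.0447). UCLA less Monash ran from 2.05 to 2.52 for miR-101b-3p and −0.999 to 0.47 for miR-101b-5p (71 to 151 called). Site differences ran from −0.94 to −0.65 for miR-101b-5p between UEF and Monash (34 to 117 called), −0.14 to 0.23, −0.28 to 0.11 and 0.95 to 1.42 for miR-101a-3p, miR-101a-5p and miR-101b-3p between UEF and UCLA, and 25 to 59 miRNAs were called between Monash and UCLA. The log2 ratio of miR-101a-3p to miR-101a-5p ran from −0.38 to 0.21 (Monash less UCLA), −0.14 to 0.39 (UEF less Monash) and −0.15 to 0.19 (UEF less UCLA). That of the 3p strands ran from 0.60 to 0.85 for UEF less Monash.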
